A study of Mus musculus with 6 samples.

Results

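Cholesterol synthesis and its control were followed through 29 genes in single-cell RNA-seq of striatal astroglia, the astrocyte lineage of the striatum. The genes were listed by the step at which their products act, with earlier results of these data known, and all 29 were found among the 32285 genes of the count table. They comprised 18 enzymes (7 of the mevalonate steps, 3 that make squalene and lanosterol and 8 that turn lanosterol into cholesterol), 5 genes of the SREBP system, 2 liver X receptors and 4 genes of sterol transport and esterification. Cells build cholesterol from acetyl-CoA through mevalonate, squalene and lanosterol. The SREBP transcription factors, which the protein Scap carries out of the endoplasmic reticulum and the Insig proteins hold back there when sterol is plentiful, switch these enzymes on, whereas liver X receptors sense oxidised sterols and drive sterol export. In the brain, which cholesterol in the blood does not readily enter, astrocytes and oligodendrocytes make it themselves, oligodendrocytes mainly for myelin and astrocytes also for supply to neurons.

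Male wild-type C57BL/6 mice (C57BL/6Jax in the study's methods) were sampled 3 days (P3) or 3 months (3m) after birth. Each age had 3 libraries, and each library came from a preparation of its own that pooled several animals. Striatal tissue without the subventricular zone was dissociated and astroglia were enriched by magnetic sorting for the ACSA2 antigen on their surface. Levels are given as CPM, the UMIs (unique molecular identifiers, each standing for 1 captured transcript) of a gene scaled to a total of 1000000 UMIs over all genes in the same cells of the same library. No agent was given and no allele was altered in any group. The comparisons ask how sterol genes differ between immature and mature astroglia, between astroglia and the oligodendrocytes that came with them at 3m, and among sub-populations of astroglia.

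Of 16690 barcodes, 14373 passed the study's filter, and 9992 of these were re-clustered by the authors as astroglia, 8874 at P3 and 1118 at 3m. The 1731 oligodendrocytes were all from 3m. Astroglial sums held 22327104 to 30617140 UMIs per P3 library but 1157485 to 1843998 per 3m library, so that low genes were measured less precisely at 3m. Sums of 8 astroglial markers (such as *Aqp4* and *Aldoc*) were 4894 to 5844 CPM at P3 and 15395 to 16163 CPM at 3m, against 887 to 1271 CPM in oligodendrocytes. Sums of 8 oligodendrocyte markers were 5.91 to 6.99 CPM in P3 astroglia, where *Mog* and *Opalin* were at 0, 721 to 1893 CPM in 3m astroglia, where all 8 had UMIs in every library, and 30280 to 52409 CPM in oligodendrocytes. The median share of mitochondrial UMIs in astroglia was higher in 3m replicate 1 (8.18%) than in the other 3m libraries (5.97% and 6.05%). It was lower in all P3 libraries (2.47%, 1.74% and 1.27%), and so moved with age. Across libraries, 37 barcode sequences occurred in more than 1 library.

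The promoters of the genes were read for the letters that SREBP factors and their partner NF-Y are known to bind. RefSeq windows of GRCm38.p6, from 250 bases before to 50 bases after an annotated start, were at hand for 24 of the 29 genes, with 33 windows in all, and none for *Fdft1*, *Stard4*, *Sqle*, *Npc1* and *Fdps*. The classical sterol regulatory element, TCACNCCAC on either strand, lay in the window of 1 of the 24 genes, *Hmgcs1*, and in 1.44% of all 27025 genes with a window. The CCAAT box, the letters CCAAT on either strand, lay in windows of 20 of the 24 genes (83.3%) and 14 of the 15 enzymes with a window (93.3%), against 41.1% of all genes. The DR4 element bound by liver X receptors, searched as 1 strict pattern of 16 letters, lay in none of the 24. It lay in only 4 of all 27025 genes (0.0148%), too few for its absence from 24 genes to be informative. A match describes letters only and is not evidence of binding.

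*Hmgcs1*, the gene of cytosolic HMG-CoA synthase, is shown because it carries the sterol regulatory element and is among the genes that were lower at 3m. The 250 bases before its RefSeq start lie at chr13:119690101-119690350 on the plus strand (GRCm38.p6) and hold no exon annotated in GENCODE M21. Capitals mark the sterol regulatory element, which begins 137 bases before the start, and 3 CCAAT boxes, which here read on the opposite strand as ATTGG.
Hmgcs1 promoter: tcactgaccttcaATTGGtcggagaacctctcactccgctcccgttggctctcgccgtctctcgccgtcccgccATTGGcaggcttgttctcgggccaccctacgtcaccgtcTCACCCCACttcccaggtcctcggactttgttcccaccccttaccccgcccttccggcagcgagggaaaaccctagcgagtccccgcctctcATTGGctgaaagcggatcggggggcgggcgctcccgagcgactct

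Between P3 and 3m, 7 of the 18 enzymes fell in astroglia, 5 of them at the mevalonate steps, whereas 1 enzyme, *Msmo1*, rose. *Srebf1*, *Npc1* and *Soat1* also rose, and *Stard4* fell. Calls required edgeR's quasi-likelihood test to give an adjusted p no higher than 0.05 and a log2(fold change) of 1 or more in size. All 29 genes could be tested, and 8 were called lower at 3m, where 16.3% of the 13530 genes tested were. The 4 called higher are near the share over all genes tested, 15.8%. On the adjusted p alone, 11 of the 29 were lower (25.7% of genes tested) and 8 were higher (23.3%). The median log2(fold change) of the 29 was -0.27 against -0.04 over all genes tested, and that of the 18 enzymes was -0.56. Without TMM scaling the median over all genes moved to -0.24 and the split of calls over all genes from 2140 higher and 2204 lower to 1753 higher and 2790 lower. The summed level of the 18 enzymes was 3875, 3005 and 2851 CPM at P3 (replicates 1, 2 and 3) and 2299, 1654 and 2260 CPM at 3m.

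All 7 mevalonate genes had lower levels in every 3m library than in any P3 library, as did 37.7% of the 13530 genes tested, and 5 of them were called. *Hmgcs1* stood at 839, 722 and 707 CPM at P3 and at 167, 200 and 242 CPM at 3m (log2(fold change) -1.70 ± 0.21, SE, n = 3 and 3 libraries, adjusted p = 1.88e-05 in edgeR). *Fdps*, the synthase of farnesyl diphosphate from which all later steps and the isoprenoids branch, stood at 445, 408 and 338 CPM at P3 and at 127, 82.4 and 138 CPM at 3m (-1.60 ± 0.22, adjusted p = 5.65e-05). *Acat2*, a cytosolic thiolase that joins 2 molecules of acetyl-CoA, stood at 98.6, 81.4 and 74.8 CPM and then at 22.5, 26.0 and 28.5 CPM (-1.53 ± 0.19, adjusted p = 2.97e-05). In these 3 genes the lowest P3 library lay far above the highest 3m library. *Mvk*, mevalonate kinase, fell from 114, 98.8 and 72.2 CPM to 39.7, 33.1 and 31.9 CPM (-1.27 ± 0.22, adjusted p = 3.18e-04). *Mvd*, the decarboxylase of the same branch, fell from 72.0, 65.6 and 63.8 CPM to 44.1, 20.6 and 23.8 CPM (-1.05 ± 0.23, adjusted p = 0.00207), but its fold dropped under the limit in 6 of 17 alternatives, with values from -0.88 to -0.99 there. *Pmvk* (-0.56) and *Idi1* (-0.55) passed the adjusted p of 0.05 without reaching the fold.

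The 3 genes of squalene and lanosterol synthesis were not called. In *Fdft1* and *Lss* every 3m library lay below every P3 library, and in *Sqle* the ages overlapped. *Lss*, lanosterol synthase, came closest, at 44.6, 32.7 and 29.2 CPM at P3 and 8.64, 19.5 and 17.7 CPM at 3m, a log2(fold change) of -0.97 ± 0.27 with an adjusted p of 0.00952. It was called in 9 of 17 alternatives, among them telencephalic sub-clusters alone (-1.17). *Fdft1*, squalene synthase (-0.27 ± 0.17, adjusted p = 0.206), and *Sqle*, squalene epoxidase (-0.38 ± 0.20, adjusted p = 0.130), missed the adjusted p.

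Among the 8 genes between lanosterol and cholesterol the directions parted. *Cyp51*, the lanosterol demethylase, stood at 350, 220 and 232 CPM at P3 and at 70.8, 64.5 and 69.9 CPM at 3m (-1.77 ± 0.20, adjusted p = 1.16e-05), the largest fall of any of the 18 enzymes. *Tm7sf2*, a sterol reductase, fell from 95.1, 88.5 and 87.3 CPM to 44.9, 29.8 and 44.1 CPM (-1.02 ± 0.19, adjusted p = 5.68e-04), and the fold was under the limit in 5 of 17 alternatives. *Msmo1*, the C4-methylsterol oxidase that acts after *Cyp51*, went the other way, from 567, 337 and 299 CPM to 977, 546 and 864 CPM. Its log2(fold change) was 1.17 ± 0.27 with an adjusted p of 0.00302, yet the ages overlapped, since P3 replicate 1 (567 CPM) lay above 3m replicate 2 (546 CPM). The call was lost, with the adjusted p still passing, without 3m replicate 1 (0.97), with stricter limits on cells (0.92) and without TMM scaling (0.99). *Ebp*, a sterol isomerase, passed the adjusted p at a higher level (0.73 ± 0.20, adjusted p = 0.00779) without reaching the fold, and *Nsdhl*, *Hsd17b7*, *Sc5d* and *Dhcr7* did not pass, with log2(fold change) from -0.40 to 0.11.

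**Figure D1:**
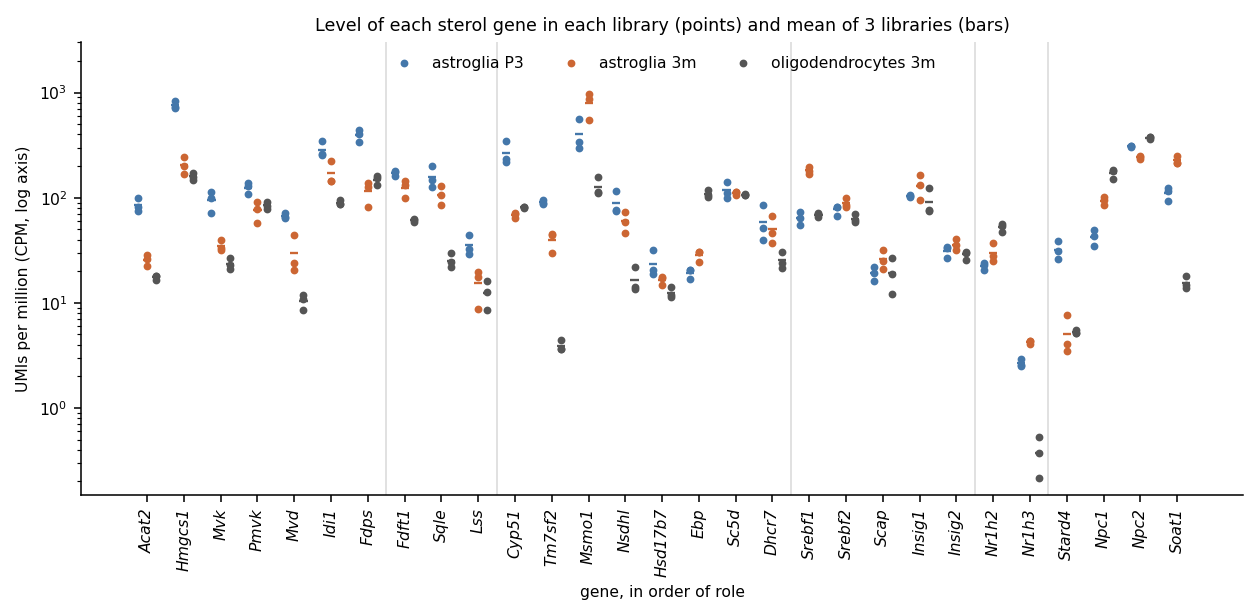
Levels of the 29 sterol genes in CPM (log axis) in P3 astroglia, 3m astroglia and 3m oligodendrocytes, with each library as a point, the mean of 3 libraries as a bar and vertical lines between roles. *Hmgcs1* and *Cyp51* lie lower in both 3m groups than in P3 astroglia, *Msmo1* is highest in 3m astroglia, and *Soat1* and *Tm7sf2* are lowest in oligodendrocytes.

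Among the SREBP genes and liver X receptors, *Srebf1* alone was called with age. *Srebf1*, which encodes SREBP1, stood at 72.4, 55.4 and 63.8 CPM at P3 and at 181, 196 and 168 CPM at 3m (1.71 ± 0.16, adjusted p = 2.33e-06), with all 3m libraries above all P3 libraries and the call kept in 17 of 17 alternatives. *Srebf2*, the family member best known for driving cholesterol genes, stood at 81.9, 67.7 and 82.4 CPM and at 84.7, 100 and 82.2 CPM, which overlap (0.40 ± 0.16, adjusted p = 0.0512). *Scap* (0.61 ± 0.20, adjusted p = 0.0210) and *Insig1* (0.53 ± 0.20, adjusted p = 0.0391) passed the adjusted p at higher levels but not the fold, and *Insig2* did not pass (0.38 ± 0.17, adjusted p = 0.0817). Of the liver X receptors, *Nr1h2* had a log2(fold change) of 0.58 ± 0.19 (adjusted p = 0.0251) and *Nr1h3*, at 2.91, 2.58 and 2.52 CPM and then 4.32, 4.34 and 4.07 CPM, one of 0.86 ± 0.37 (adjusted p = 0.0703). The 3m values of *Nr1h3* rest on 19 UMIs in all.

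In transport and storage, the gene with the largest fold of all 29 was *Stard4*, a carrier that moves cholesterol between membranes and is itself an SREBP target. It fell from 38.7, 25.9 and 31.0 CPM to 3.46, 7.59 and 4.07 CPM (-2.38 ± 0.29, adjusted p = 2.37e-05), with 24 UMIs behind the 3m values. *Npc1*, which with *Npc2* releases cholesterol from lysosomes, rose from 49.5, 34.4 and 43.1 CPM to 94.2, 85.1 and 101 CPM (1.34 ± 0.17, adjusted p = 2.80e-05). *Soat1*, the enzyme that esterifies cholesterol for storage, rose from 117, 92.2 and 124 CPM to 214, 248 and 216 CPM (1.22 ± 0.16, adjusted p = 4.79e-05). Neither gene's ages overlapped, and both calls were kept in 17 of 17 alternatives. *Npc2* had 313, 309 and 307 CPM at P3 and 252, 245 and 236 CPM at 3m, which do not overlap, but the fitted change was -0.15 ± 0.16 (adjusted p = 0.453).

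Cycling markers (*Mki67*, *Top2a* and *Cdk1*) summed to 350 to 455 CPM in P3 astroglia and to 0 to 0.542 CPM at 3m, and moved with every change above, as did the share of mitochondrial UMIs, 1.27 to 2.47% at P3 and 5.97 to 8.18% at 3m. Leaving out the cycling sub-clusters 6 and 8 gave 4 genes called higher and 9 lower. Oligodendrocyte RNA moved with age too, and subtracting an oligodendrocyte profile scaled by *Mog*, *Mag*, *Opalin*, *Ermn* and *Cldn11* gave 4 higher and 8 lower. Their part in the remaining differences was not tested.

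At 3m, astroglia were set against the oligodendrocytes of the same libraries to ask which of these cell types held more of each sterol mRNA. Called higher in astroglia were *Soat1*, *Srebf1* and 5 enzymes (*Tm7sf2*, *Msmo1*, *Sqle*, *Nsdhl* and *Mvd*), and 1 enzyme, *Ebp*, was called higher in oligodendrocytes. With the library as a block, 28 of the 29 genes could be tested. Called higher in astroglia were 7 of them, a count near the share over the 10932 genes tested, 25.4%. Called lower was 1, against 18.0% of genes tested. On the adjusted p alone, 15 were higher (34.2% of genes tested) and 6 lower (32.2%). The median log2(fold change) of the 28 was 0.43 against 0.00 over all genes, with positive values for higher levels in astroglia. The 18 enzymes summed to 2299, 1654 and 2260 CPM in astroglia and to 1150, 1089 and 1103 CPM in oligodendrocytes.

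*Soat1* differed most, with 214, 248 and 216 CPM in astroglia and 13.9, 18.1 and 14.8 CPM in oligodendrocytes (3.82 ± 0.12, adjusted p = 2.00e-11). *Tm7sf2* followed, at 44.9, 29.8 and 44.1 CPM against 3.64, 3.67 and 4.43 CPM (3.28 ± 0.23, adjusted p = 1.94e-08). *Msmo1* stood at 977, 546 and 864 CPM against 158, 114 and 110 CPM (2.58 ± 0.14, adjusted p = 1.58e-09). For these 3 genes every astroglial sum lay far above every oligodendrocyte sum. *Sqle* was at 128, 85.7 and 107 CPM against 29.6, 24.4 and 21.8 CPM (2.02 ± 0.13, adjusted p = 1.38e-08). *Nsdhl*, which works beside *Msmo1* in removing the C4 methyl groups, was at 73.4, 46.1 and 59.1 CPM against 22.1, 13.6 and 14 CPM (1.79 ± 0.16, adjusted p = 2.80e-07). *Mvd*, at 11.8, 10.8 and 8.48 CPM in oligodendrocytes, was the only mevalonate gene called (1.43 ± 0.22, adjusted p = 6.76e-05). *Srebf1* was at 71.0, 66.1 and 69.3 CPM in oligodendrocytes (1.37 ± 0.11, adjusted p = 1.44e-07). All 7 calls were kept in 12 of 12 alternatives, and in none of the 7 did the cell types overlap. Over all genes tested, 35.0% were higher in astroglia without overlap.

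*Ebp* was the exception among the enzymes, with 30.2, 30.4 and 24.4 CPM in astroglia and 105, 101 and 119 CPM in oligodendrocytes (-1.96 ± 0.15, adjusted p = 5.01e-08). Beside it, 5 genes passed the adjusted p at a lower level in astroglia without reaching the fold. Of these, *Npc1* (152, 182 and 180 CPM, -0.92 ± 0.11, adjusted p = 7.98e-06) and *Nr1h2* (47.2, 56.7 and 53.5 CPM, -0.87 ± 0.17, adjusted p = 4.94e-04) differed most, ahead of *Npc2* (-0.65), *Fdps* (-0.43) and *Cyp51* (-0.28). *Hmgcs1* stood at 149, 173 and 157 CPM in oligodendrocytes, within the reach of 3m astroglia (0.30 ± 0.12, adjusted p = 0.0387), and *Sc5d* at 108, 106 and 105 CPM (0.02 ± 0.11, adjusted p = 0.876), where the cell types overlap too. *Fdft1* (0.98 ± 0.13) and *Dhcr7*, which makes cholesterol in the last step of its branch (0.92 ± 0.16), lay just under the fold, and *Fdft1* was called in 5 of 12 alternatives and *Dhcr7* in 3. *Nr1h3* had 19 UMIs in astroglia and 4 in oligodendrocytes (4.32, 4.34 and 4.07 CPM against 0.214, 0.525 and 0.369 CPM) and did not pass the filter on low counts. It was tested and called higher in astroglia in 2 of 12 alternatives, without the filter (3.24) and without 3m replicate 3 (3.36).

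**Figure D2:**
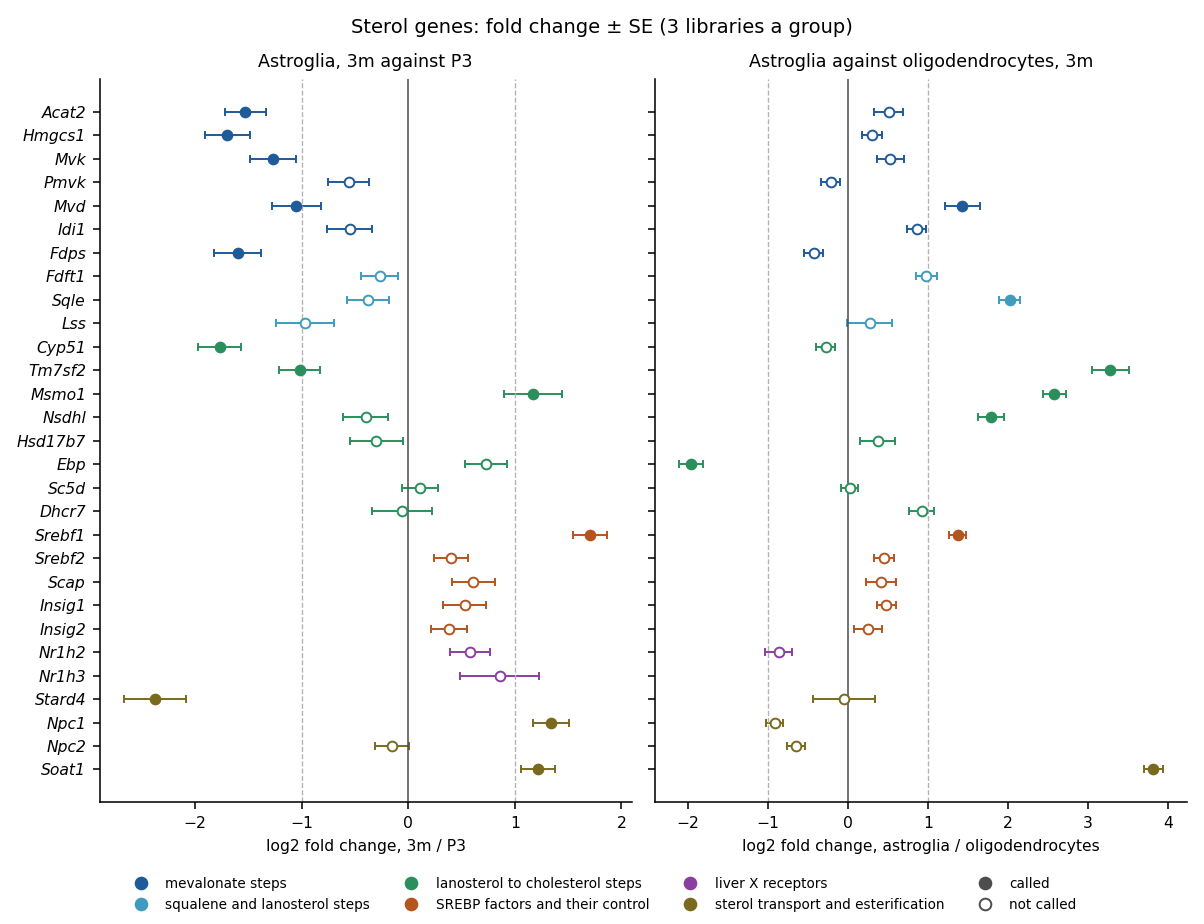
log2 fold change with its SE (bars) for each sterol gene, on the left for 3m over P3 in astroglia and on the right for astroglia over oligodendrocytes at 3m, with filled points for calls and dashed lines at the fold limit of 1. The mevalonate genes lie left of 0 with age, *Msmo1*, *Srebf1*, *Npc1* and *Soat1* lie right of it, and *Soat1*, *Tm7sf2* and *Msmo1* stand out between cell types.

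Because oligodendrocytes held 63.6% of the UMIs of all 3m cells past the filter and astroglia 25.4%, the same genes can be read as shares of what the preparation held. Astroglia gave 81.7% of all *Soat1* UMIs at 3m (75.2 to 85.5% by library), 75.8% of those of *Tm7sf2* and 69.0% of those of *Msmo1* (59.9 to 80.5%). They gave 33.4% of *Hmgcs1* UMIs (21.3 to 44.8%), and oligodendrocytes 64.7%. Oligodendrocytes gave 83.5% of *Ebp* UMIs (81.8 to 86.1%). The 2 oligodendrocyte clusters, numbered 2 and 10, had *Msmo1* at 109 and 158 CPM and *Cyp51* at 70.6 and 92.9 CPM (libraries pooled), but cluster 10 came mostly from 3m replicate 1 (458 of 503 cells) and cluster 2 from the others.

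Shares of cells with a UMI were compared after thinning every cell to 2000 UMIs. *Hmgcs1* was then seen in 66.5 to 73.7% of P3 astroglia, 27.9 to 32.9% of 3m astroglia and 16.5 to 24.2% of oligodendrocytes. *Msmo1* was seen in 40.2 to 62.7%, 55.6 to 73.4% and 16.6 to 25.9% of them, and *Soat1* in 17.0 to 23.5%, 28.9 to 37.5% and 2.11 to 2.74%. Microglia, shown as a type for which these genes are not markers, gave *Hmgcs1* in 5.26 to 6.25% of cells at 3m and 8.57 to 25.9% at P3, and *Msmo1* in 5.56 to 15.8% at 3m and 2.33 to 14.8% at P3. For *Soat1* the microglial range at 3m, 0 to 33.3% of 53 cells, overlapped that of astroglia. Median depths were 7307 UMIs in P3 astroglia, 3631 in 3m astroglia, 5420 in oligodendrocytes, and 6223 and 3940 in microglia of P3 and 3m. Thinning left out 212 of the 1118 astroglia at 3m, 1113 of the 8874 at P3 and 34 of the 1731 oligodendrocytes. Unthinned, *Hmgcs1* was seen in 90.5 to 97.0% of P3 astroglia, 47.7 to 56.9% of 3m astroglia and 45.1 to 53.4% of oligodendrocytes, *Msmo1* in 73.4 to 92.8%, 68.1 to 89.3% and 34.3 to 65.8%, and *Soat1* in 52.2 to 67.4%, 58.0 to 64.5% and 6.05 to 10.8%. The ages overlapped for *Msmo1* with and without thinning, since P3 replicate 1 lay above 3m replicate 2, and for *Soat1* without thinning.

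Astroglial sub-clusters, which the authors drew from the same counts and which are therefore described without a test, differed in the enzymes at each age. At P3, *Hmgcs1* was highest in sub-clusters 1 (999 CPM, libraries pooled), 0 (952 CPM), 11 (921 CPM) and 9 (911 CPM), which the study placed with the telencephalon. It was lower in sub-clusters 3 (502 CPM), 5 (561 CPM) and 15 (382 CPM), which the study placed outside it, and in the cycling sub-clusters 6 (504 CPM) and 8 (619 CPM). The study placed sub-clusters 4, 10 and 12 outside it too, and not every enzyme divided by region. Pooled *Fdft1* was at 168 CPM in 4, 194 CPM in 10 and 118 CPM in 12. It was at 228 CPM in 0 but 141 CPM in sub-cluster 2, which lies on the main lineage. Within each of the 3 P3 libraries, all 18 enzymes were higher in sub-cluster 0 than in 3, and all 18 were higher in 0 than in 5. Of the 13530 genes tested with age, 24.6% and 21.0% were higher in 0 in each library. *Tm7sf2* was at 164, 161 and 166 CPM in sub-cluster 0 and at 12.3, 27.8 and 24.0 CPM in 3, where replicate 1 gave 4 UMIs. *Cyp51* was at 426, 315 and 343 CPM against 172, 113 and 128 CPM. The regulators were divided. *Srebf2* and *Insig1* were higher in sub-cluster 0 than in 3 and than in 5 in each library, whereas *Srebf1*, *Nr1h2* and *Nr1h3* were lower. *Srebf1* was at 58.9, 74.1 and 80.6 CPM in 0 and 105, 78.0 and 94.2 CPM in 3. *Nr1h3* rests on 42 UMIs in 0, 35 in 3 and 29 in 5, with 5.01 CPM in 0 and 6.16 CPM in 3 in replicate 1. *Nr1h2* in replicate 3 was close in 0 and 5, at 26.0 and 26.3 CPM.

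At 3m, *Msmo1* was at 879 CPM in sub-cluster 7 and 1043 CPM in 14, the main adult sub-clusters, and at 344 CPM in 13, which the study placed outside the telencephalon. Within 3m replicates 2 and 3 it was at 776 and 976 CPM in sub-cluster 7 and at 369 and 287 CPM in 13. *Srebf1* ran the opposite way, at 168 and 162 CPM in 7 and 278 and 241 CPM in 13, and so did *Ebp* (16.6 and 22.6 CPM against 55.9 and 41.0 CPM) and *Soat1* (240 and 215 CPM against 293 and 256 CPM). Of the 18 enzymes, 13 were higher in 7 than in 13 in both libraries, against 27.8% of the 13530 genes, and 2, *Acat2* and *Ebp*, lower. In 3m replicate 3, sub-cluster 13 held only 31 cells, so that the direction of low genes is uncertain there. *Lss* was at 17.0 CPM in 7 and 15.4 CPM in 13 (3 UMIs in 13) in that library, and *Mvk* at 33.1 and 30.7 CPM (6 UMIs in 13). *Acat2* was close too, at 28.3 and 30.7 CPM (6 UMIs in 13). Sub-cluster 16 held 121 cells with a summed level of oligodendrocyte markers of 16122 CPM, beside 11867 CPM of astroglial markers, and *Msmo1* was at 68.4 CPM there. Sub-cluster 14 came almost wholly from 3m replicate 1 (182 of 184 cells) and sub-cluster 1 from P3 replicate 1 (1156 of 1211 cells), so that these cannot be told apart from their libraries. Taking the telencephalic sub-clusters alone at each age gave 4 sterol genes called higher and 9 lower at 3m.

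*Insig1*, itself an SREBP target that restrains the pathway, stood apart in 2 sub-clusters of P3. It was at 337 CPM in sub-cluster 4 and 282 CPM in 12, against 125 CPM in sub-cluster 0 and 132 CPM in 1. Both sub-clusters came almost wholly from P3 replicate 3 (719 of 734 and 273 of 284 cells) and had median depths of 1048 and 986 UMIs per cell, where P3 astroglia had 7307. Cells of P3 replicate 3 that failed the study's filter also stood high, at 325 CPM against 33.9 and 31.3 CPM in those of replicates 1 and 2, and so did the shallow cluster 12 labelled endothelial (252 CPM, 346 of 349 cells from P3 replicate 3, with endothelial markers at 1105 CPM and astroglial ones at 3748 CPM). Over all astroglia the 3 P3 libraries were alike, at 105, 102 and 103 CPM. The part of depth or of this preparation in the high values was not tested.

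**Figure D3:**
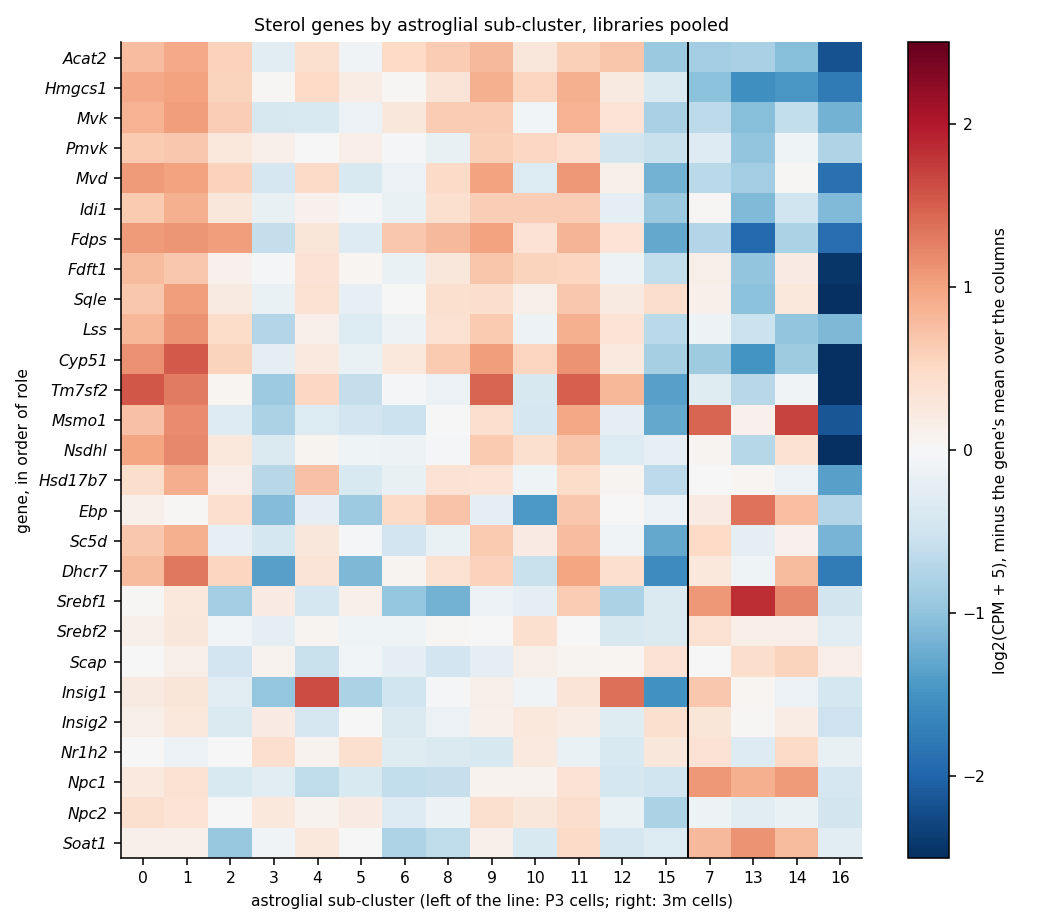
Levels of 27 of the sterol genes (*Nr1h3* and *Stard4* left out) in each astroglial sub-cluster of at least 100 cells, as log2(CPM + 5) with libraries pooled, minus the gene's mean over the columns. Red columns 0, 1, 9 and 11 mark P3 sub-clusters with high enzyme levels, the 3m columns 7 and 14 are red for *Msmo1*, *Srebf1*, *Npc1* and *Soat1*, and *Insig1* is red in 4 and 12. Of these, *Soat1* (282 CPM) and *Npc1* (86.9 CPM) were high in 3m sub-cluster 13 too, and *Srebf1* was higher in 13 than in 7 in 3m replicates 2 and 3.

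Along pseudotime, the authors' ordering of the main lineage from P3 progenitors to adult astroglia, *Hmgcs1*, *Cyp51* and *Tm7sf2* were higher late than early within P3 and, for *Hmgcs1* and *Cyp51*, lower in 3m cells than in either. The ordering was made from the same counts, and its bins hold P3 cells almost alone up to bin 14 and 3m cells alone from bin 16, so the step between them cannot be told apart from the step between ages. From bin 3 to bin 14, 26 of the 29 genes were higher in each of the 3 P3 libraries, against 38.6% of the 13530 genes tested with age. *Ebp* was lower in each, and *Acat2* and *Nr1h3* were mixed. *Hmgcs1* went from 536, 482 and 457 CPM in bin 3 to 826, 953 and 935 CPM in bin 14. *Cyp51* went from 195, 125 and 140 CPM to 432, 344 and 366 CPM, and *Tm7sf2* from 23.6, 34.6 and 41.2 CPM to 136, 173 and 169 CPM. In the 3m bins 17 and 18 the pooled levels of *Hmgcs1* were 234 and 219 CPM and those of *Cyp51* 81.7 and 70.6 CPM, below the 488 and 146 CPM of bin 3. *Tm7sf2*, at 48.3 and 43.1 CPM there, stood between bin 3 (33.7 CPM) and bin 14 (163 CPM).

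*Msmo1* went from 230, 166 and 111 CPM in bin 3 to 787, 627 and 533 CPM in bin 14. Among the 3m bins its pooled level was 506 CPM in bin 16, below each library of bin 14. It was 940, 1022 and 1056 CPM in bins 17 to 19. *Srebf1*, at pooled levels of 26.5 to 43.4 CPM in bins 2 to 11, went from 51.1, 16.3 and 26.9 CPM in bin 3 to 72.4, 87.0 and 86.4 CPM in bin 14 and to pooled levels of 158 and 173 CPM in bins 17 and 18. *Soat1* went from a pooled level of 52.2 CPM in bin 3 to 165 CPM in bin 14, with each library higher, and was at 222 CPM in both bins 17 and 18. Its course within P3 was not steady, with pooled levels of 89.7 CPM in bin 8 and 46.9 CPM in bin 10. Bin 15, with 22 cells from 3m and 9 from P3, and bin 19, with 25 of 30 cells from 3m replicate 1, hold too few cells to be read alone.

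**Figure D4:**
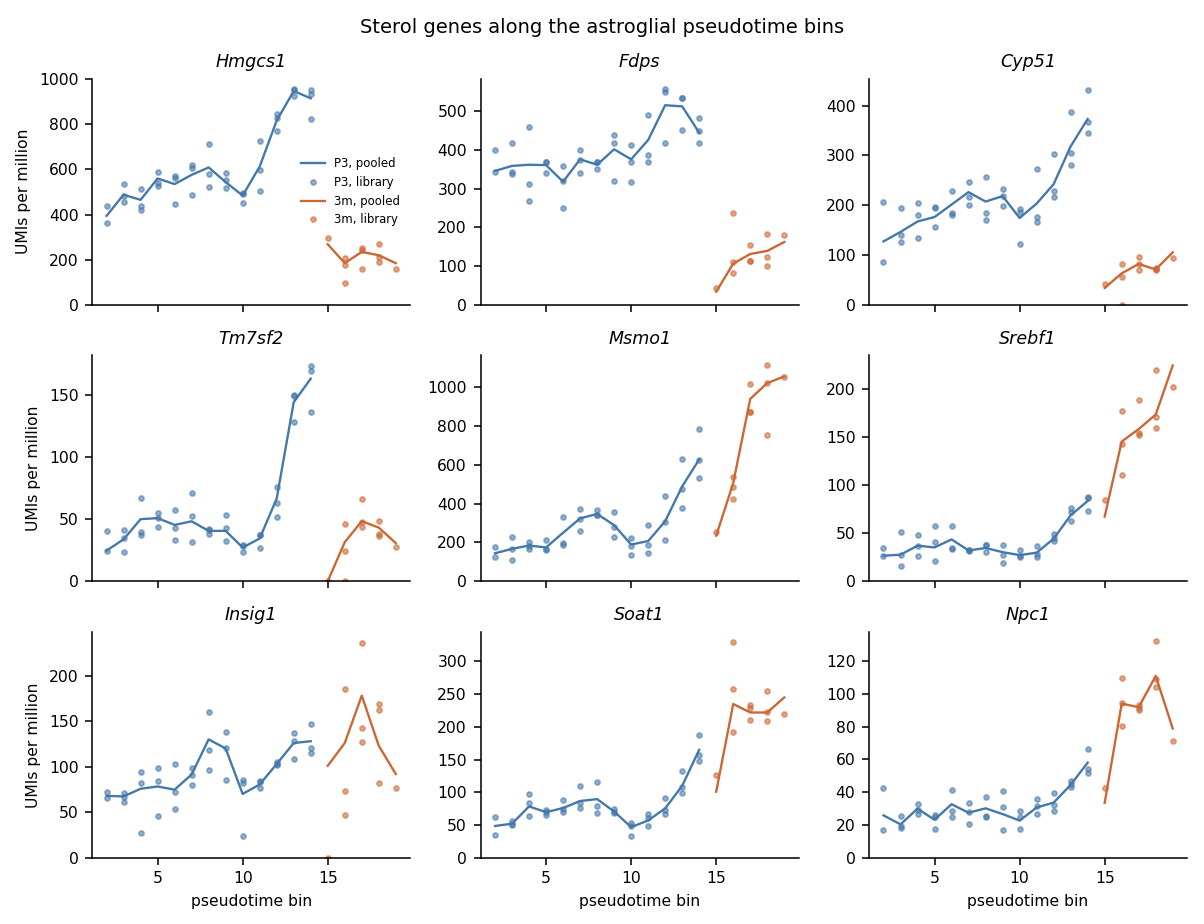
Levels of 9 sterol genes in CPM against the pseudotime bin, for bins with at least 20 cells of an age, with lines for pooled cells and points for single libraries (P3 blue, 3m orange). *Hmgcs1*, *Fdps*, *Cyp51* and *Tm7sf2* are higher at the end of the P3 bins than in any 3m bin from 16 on, and *Msmo1*, *Srebf1*, *Soat1* and *Npc1* reach higher pooled levels in bins 17 and 18 than in bin 14.

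Outside the astroglia, the other cell types of the preparations held some of these genes at higher levels. *Npc2*, a soluble lysosomal protein, was highest in microglia, at 976, 1154 and 1029 CPM at P3 and 751, 1013 and 936 CPM at 3m. *Nr1h3* was at 12.9, 15.2 and 9.48 CPM in endothelial cluster 7 and 46.1, 29.8 and 30.6 CPM in pericyte cluster 6 at P3, and at 42.7, 42.8 and 19.5 CPM in endothelial cluster 17 at 3m, with 0 UMIs in microglia of either age. The endothelial clusters 7 and 17 also held mural markers, at 2630 and 6418 CPM, beside endothelial ones at 4070 and 10865 CPM. The microglial sums held 899950 UMIs at P3 and 255397 at 3m, so that a low level there was not detectable. *Stard4* was higher in endothelial cluster 17 (30.2, 46.7 and 43.8 CPM) than in 3m astroglia or oligodendrocytes. Among precursors of oligodendrocytes at P3, *Hmgcs1* was at 313 CPM and *Cyp51* at 193 CPM with libraries pooled, above the oligodendrocytes of 3m. *Ebp* was lower in astroglia of either age than in microglia and endothelial cells, at 55.1, 54.5 and 63.3 CPM in endothelial cluster 17.

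**Figure D5:**
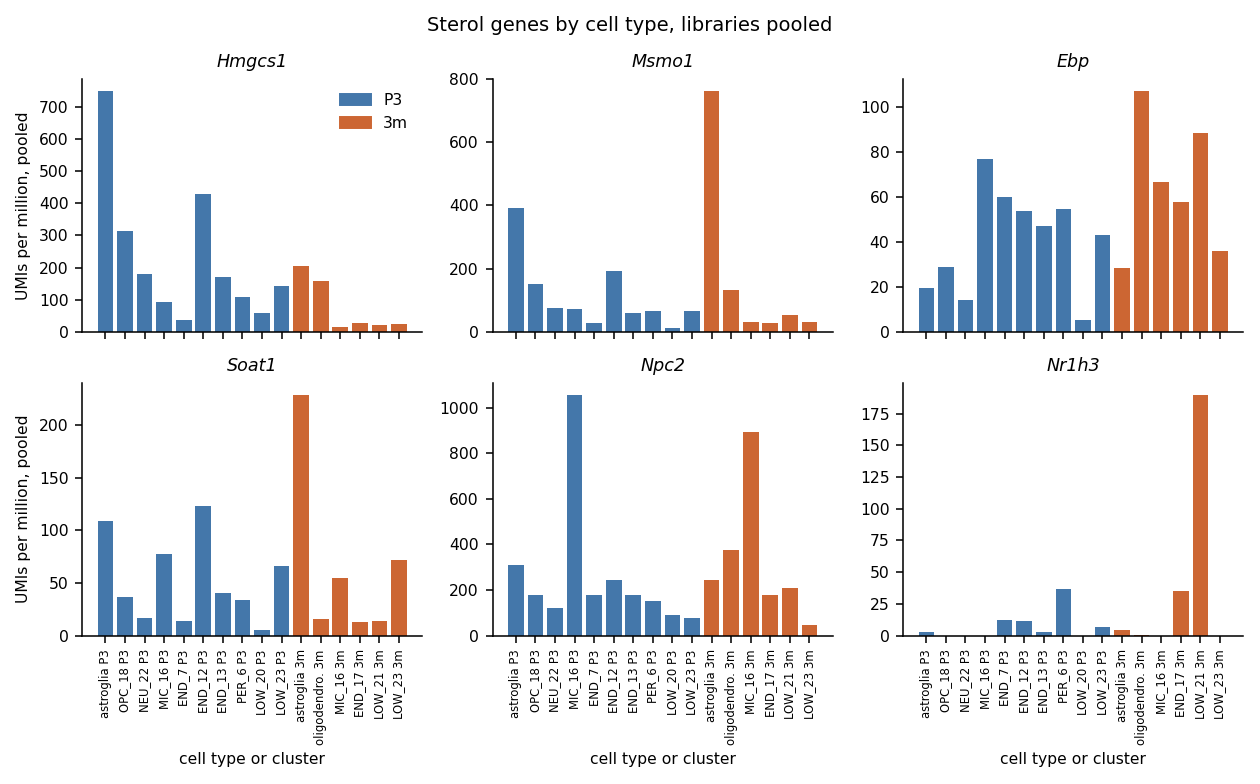
Pooled levels of 6 sterol genes in CPM for every cell type or cluster with at least 100000 UMIs at an age, P3 in blue and 3m in orange, each panel from 0. *Hmgcs1* is highest in P3 astroglia, *Msmo1* and *Soat1* in 3m astroglia, *Ebp* in oligodendrocytes, *Npc2* in microglia and *Nr1h3* in the unidentified cluster 21.

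Neighbouring lipid pathways were taken as fixed lists. With age in astroglia, 2 of 12 genes of fatty acid synthesis and desaturation were called higher (*Elovl5*, 1.51 ± 0.17, and *Acss2*, 1.13 ± 0.18) and 2 lower (*Aacs*, -1.51 ± 0.33, and *Elovl6*, -1.04 ± 0.25), and their median was 0.08. These counts are near the shares over all genes tested (15.8% higher and 16.3% lower). Of the 9 genes of the isoprenoid branch, which starts from the product of *Fdps*, 4 passed the adjusted p in edgeR, 3 of them lower. Over all genes tested, 25.7% passed it lower and 23.3% higher. The largest change in the branch, of *Nus1* (-0.91 ± 0.18), stayed under the fold. Both sterol hydroxylases that could be tested rose, *Cyp46a1*, the cholesterol 24-hydroxylase, from 5.96, 8.17 and 11.8 CPM to 28.5, 31.5 and 29.9 CPM (1.99 ± 0.25, adjusted p = 2.79e-05) and *Cyp7b1*, an oxysterol hydroxylase, from 38.2, 24.4 and 26.8 CPM to 93.3, 68.3 and 76.1 CPM (1.59 ± 0.19, adjusted p = 2.12e-05). Of 11 sterol carriers and lysosomal lipid genes, 2 were called higher, near the 15.8% of genes tested, and none lower, against 16.3%. *Gramd1b*, which takes cholesterol from the plasma membrane, rose most (2.32 ± 0.18), and *Osbpl1a* was called too (1.10 ± 0.16). Of the 5 targets of liver X receptors, *Apoe* was called (1.27 ± 0.33, adjusted p = 0.00661) and *Abca1* was not (0.24 ± 0.21, adjusted p = 0.377).

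Against oligodendrocytes, these lists parted more. *Cyp7b1* (5.39 ± 0.24) and *Cyp46a1* (3.32 ± 0.26) were higher in astroglia, and *Cyp27a1*, the sterol 27-hydroxylase, was lower, at 0, 4.34 and 1.36 CPM against 23.2, 22.8 and 22.5 CPM (-3.38 ± 0.42, adjusted p = 8.55e-06, 10 UMIs in astroglia). The exporters divided likewise, with *Abca1* at 124, 161 and 130 CPM in astroglia against 25.3, 22.3 and 22.1 CPM (2.53 ± 0.14, adjusted p = 2.34e-09), and *Abcg1* at 0, 2.71 and 0 CPM against 121, 137 and 103 CPM. In fatty acid metabolism 5 of 12 genes were called higher in astroglia (25.4% of genes tested), *Fads2* the furthest (4.90 ± 0.15), and *Elovl6* (-2.53 ± 0.14) and *Scd2* (-1.47 ± 0.20) were lower. Of the 9 carriers and lysosomal lipid genes tested, 5 were called lower in astroglia (18.0% of genes tested), led by *Nceh1* (-1.94 ± 0.20), *Osbp* (-1.84 ± 0.19) and *Stard3* (-1.77 ± 0.17), and none higher. In the isoprenoid branch, *Fnta* (-1.28 ± 0.12) and *Fntb* (-1.12 ± 0.28), both subunits of farnesyltransferase, were lower.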

How the data were processed

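Single-cell libraries (10x 3′ chemistry) of ACSA2-enriched striatal cells, 3 at P3 and 3 at 3m, were grouped by their labels. The deposited table held raw UMI counts, which the authors made with Cell Ranger on mm10 and merged without normalization. A second deposited table gave the authors' clusters, astroglial sub-clusters and a Slingshot pseudotime score with its bin. The authors' filter (more than 500 genes detected, mitochondrial share below 10%) was applied here too. Doublets were not removed and no caller was run.

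The library was the replicate, and counts were added up over its cells of a type. Sums were compared with edgeR 4.0.16 in R 4.3.3 (quasi-likelihood test, TMM scaling, filterByExpr, Benjamini-Hochberg adjustment over all genes tested, two-sided), which was tested on simulated counts. Calls required an adjusted p no higher than 0.05 with a log2(fold change) of 1 or more in size. Astroglia and oligodendrocytes were compared with the library as a block. Cell types are the clusters named by the authors, made from the same counts, and the p-values measure the spread between 3 libraries only. CPM are scaled to library totals of the cells summed, whereas fitted changes use TMM, and so the 2 can differ. Floors and intervals cover counting error only.

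Genes were named by their role, with single values for the called genes and for those that went against their role. Members, lists and tests were chosen with earlier results of these data known. Gene positions are from GENCODE M21. *Tm7sf2* shares exon bases on its own strand with *Vps51*, *Fdps* with *Gm43738*, *Nr1h3* with *Gm13783*, and *Acat2* resembles *Acat3* closely, so that these counts are uncertain where reads were shared. Alternatives were DESeq2 1.42.0, other scalings and filters, thinned sums, subtraction of an oligodendrocyte profile, subsets of sub-clusters, the block and leaving out each library. The values of 1 alternative, a second subtraction, are counted in the ranges over alternatives but not reported here.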

Additional observations from a re-analysis of the deposited data

Results flagged for a closer look

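*Nr1h3*, the liver X receptor alpha gene, was at 190 CPM in the 68 cells of cluster 21 at 3m, which the authors left unidentified, from 28 UMIs (95% Poisson interval 126 to 275 CPM). The highest level in any named cell type of 3m with at least 100000 UMIs was 35.0 CPM, in endothelial cluster 17. The libraries gave 135, 228 and 242 CPM. The cluster was outside both comparisons, and its summed level of mural cell markers was 42085 CPM.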

How the results depend on the processing

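With age, 3 or 4 sterol genes were called higher and 6 to 9 lower over 17 alternatives, all planned, and between cell types 7 to 10 higher and 1 or 2 lower over 12. Genes called with age over the whole table were 2717 instead of 4344 after thinning all sums to the smallest, which has fewer UMIs and fewer genes tested. Lower in astroglia than in oligodendrocytes were 2 sterol genes with no filter on low counts and 1 to 2 when leaving out 1 library, with *Nr1h2* joining *Ebp* without 3m replicate 1 (-1.07). The signs that turned belonged to uncalled genes near 0, and the cause was not tested. With age these were *Hsd17b7* with stricter limits on cells (0.11), *Sc5d* without scaling (-0.08), without the filter (-0.01) and without sub-clusters 6 and 8 (-0.02), *Dhcr7* after thinning (0.02) and on leaving out 1 library (-0.34 to 0.29, above 0 without 3m replicate 2 at 0.07 or P3 replicate 1), and *Insig2* with stricter limits (-0.29). Between cell types they were *Lss* on leaving out 1 library (-0.07 without 3m replicate 3, to 0.58), *Sc5d* without the filter (-0.09) and without 3m replicates 2 (-0.01) and 3 (-0.03), and *Stard4* in telencephalic sub-clusters (0.31), without the block (0.01) and on leaving out 1 library (-0.48 to 0.18, and 0.03 without 3m replicate 3). Single genes lost a call in 14 fits and gained one in 21. Whether replicate numbers pair the ages was not settled. Deviations of same-numbered libraries correlated at 0.210, 0.101 and 0.041, and those of other pairs at -0.175 to 0.144. P3 replicates 1 and 2 correlated best with their own number, and P3 replicate 3 with 3m replicate 2. With the replicate block 4 sterol genes were called higher and 8 lower, as without it. Astroglia and oligodendrocytes of 1 library share it, and without that block 8 were higher and 1 lower. Depth limits *Nr1h3* (19 UMIs) and *Stard4* (24 UMIs) at 3m.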
